A study of Mus musculus with 4 samples.

Results

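A set of 10 transcription factor genes of pluripotency and of the earliest lineages (Pou5f1, Sox2, Nanog, Klf4, Klf5, Klf17, Tfap2c, Sall4, Cdx2 and Zfp42) were followed in mouse 2-cell embryos. The genes were taken by symbol, and all 10 were found among the 30049 Ensembl genes of the deposited table. The embryos were wild type and came from BDF1 mice, which are first-generation hybrids of C57BL/6 and DBA/2. The strain of the males used for mating is not named separately. Control embryos, called untreated here, had been kept as zygotes for 24 h in the embryo culture medium KSOM without dimethyl sulfoxide (DMSO), and treated embryos for 24 h in KSOM with 2% DMSO, in each case starting 18 h after injection of the ovulation hormone hCG. There were 2 libraries per group, numbered 1 and 2, and 50 embryos were collected per group, but how they were divided over the libraries is not stated. Nothing states that the libraries of a group came from separate cultures, so the p-values measure the spread between libraries, which may be technical.

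Pluripotency is the capacity of a cell to form all tissues of the body. In the mouse it is held in the inner cell mass of the blastocyst by a circuit of transcription factors around Pou5f1 (also called Oct4), Sox2 and Nanog, which is flanked by Kruppel-like zinc finger factors, Sall4 and Zfp42 (also called Rex1). Cdx2 and Tfap2c belong to the trophectoderm, the outer layer that builds the placenta. At the 2-cell stage, the embryo is passing from maternal RNA to its own transcription, and the first of these factors are transcribed before any lineage is visible.

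Levels are given as TPM (a transcript abundance in which the length of the RNA and the size of the library have been divided out), so that levels of different genes can be set beside each other. TPM keeps no depth, and the depth of these libraries is unknown. Where a pair of values is given, the first is replicate 1 and the second replicate 2. The table summed to 768174 and 780527 TPM for untreated and to 772487 and 799166 TPM for treated embryos. TPM over all transcripts add up to the same total in every library. Since these sums differ, part of that total is missing from the table, and the share differs between libraries. In bulk samples, a change in the RNA per embryo cannot be told apart from a change in the share of embryos that hold it.

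The label of the samples was checked against markers. The 2-cell markers Tcstv3 and Zfp352 were at 297 and 209 TPM and at 143 and 89.0 TPM in untreated embryos, and at 716 and 574 TPM and at 551 and 373 TPM in treated embryos. Of 9 such markers 8 were tested, of which 3 were higher in DMSO-treated embryos (Tcstv1, Tcstv3 and Zfp352, with log2 fold changes of 1.84, 1.36 and 2.00 and limma adjusted p = 0.0222, 0.0281 and 0.0209) and 0 lower. Among all 12038 genes tested 6.42% were called higher and 14.1% lower. Of the 8 tested 2-cell markers 6 had a positive log2 fold change and 2 a negative one, namely Zscan4d (-0.05) and Obox3 (-0.03). Duxf3, at 0.176 and 0.0389 TPM in untreated embryos and 0.365 and 0.0569 TPM in treated embryos, was not tested. Of 12 oocyte and maternal markers 11 were tested, of which 2 were higher (Bmp15 and Oosp1), 0 lower and 9 not called. The log2 fold change was positive for 7 of the 11 and negative for 4, namely Padi6 (-0.80), Mos (-0.54), Zp3 (-0.42) and Khdc3 (-0.22). With the replicate number as a block, 7 of the 11 oocyte and maternal markers and 5 of the 8 tested 2-cell markers were called higher and 0 lower. That fit called 42.6% of all genes. Summed over the list, the oocyte and maternal markers were at 1131 and 736 TPM in untreated embryos and at 2886 and 2235 TPM in treated embryos, most of it from Oosp1, which was at 877 and 576 TPM and at 2086 and 1763 TPM. The 12 markers of cumulus and granulosa cells, which surround the egg, summed to 3.59 and 2.55 TPM and to 4.96 and 3.73 TPM, with Inhba, Amh and Lhcgr listed at 0 in all 4 libraries. The 6 sperm markers summed to 2.96 and 3.38 TPM and to 13.5 and 8.69 TPM, mostly Prm2, which was called higher in DMSO-treated embryos, while Tnp2 was listed at 0 in all. Tnp1 was at 0.281 and 0 TPM in untreated embryos and at 2.08 and 1.69 TPM in treated embryos. It was called higher too, but reached the mean of 1 TPM needed for testing only through the treated embryos. The part of these stage and sperm markers in the results below was not tested.

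Klf17, a Kruppel-like factor known for its expression in the oocyte and early embryo, was the most abundant of the 10 genes in every library. It was at 306 and 168 TPM in untreated and at 270 and 144 TPM in treated embryos, which put its group means at the 95.7th and 95.9th percentiles of the genes tested. In control embryos, Sall4 and Tfap2c followed at 78.9 ± 7.99 and 77.8 ± 2.34 TPM (SD, n = 2), and their libraries overlapped. Klf5 (45.5 ± 10.8 TPM) and Klf4 (37.0 ± 10.7 TPM) came next and also overlapped. Nanog at 7.38 ± 0.486 TPM, Zfp42 at 5.21 ± 1.38 TPM and Sox2 at 1.40 ± 1.04 TPM (SD, n = 2 each) did not overlap with their neighbours. Pou5f1 and Cdx2 were at the bottom. In DMSO-treated embryos, the order became Klf17, Klf5, Sall4, Tfap2c, Klf4, Nanog, Zfp42, Sox2, Pou5f1 and Cdx2, in which the libraries of Zfp42 and Sox2 and those of Pou5f1 and Cdx2 overlapped and the other neighbours did not. Klf5 thus stood above Sall4 and Tfap2c.

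**Figure D1:**
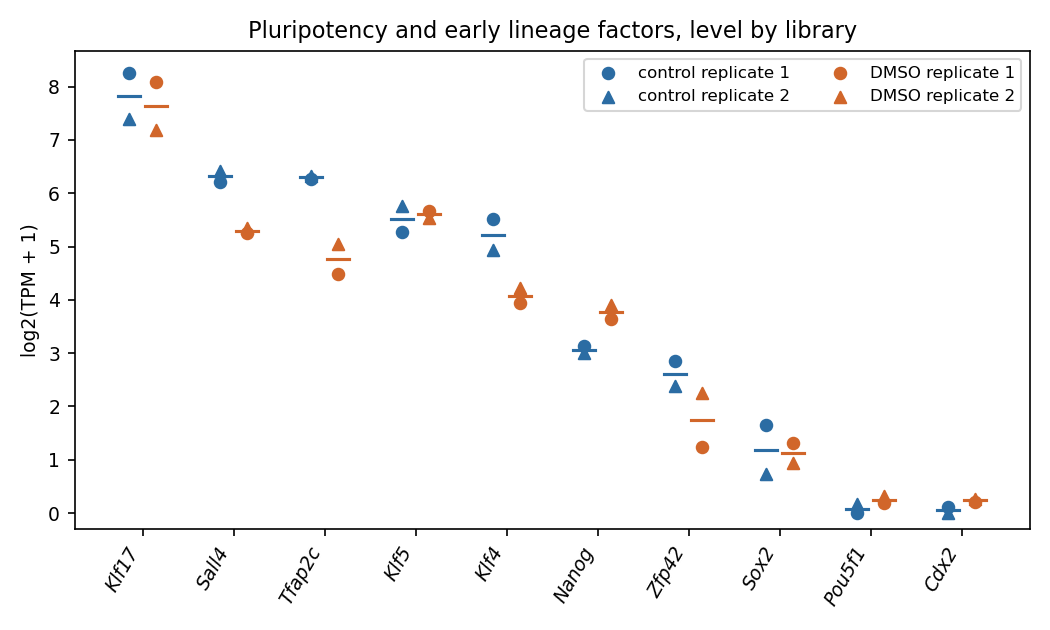
Level of the 10 genes, as log2(TPM + 1), in control (blue) and DMSO (orange) libraries, with circles for replicate 1, triangles for replicate 2 and short lines for group means. Klf17 stands highest in all 4 libraries, the DMSO libraries lie below the control libraries for Sall4, Tfap2c, Klf4 and Zfp42 and above them for Nanog, and Pou5f1 and Cdx2 are near 0.

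The comparison of the groups asked how DMSO in the medium altered these RNAs. On log2(TPM + 1), tested with limma (a linear model that shares the variance between genes, Benjamini-Hochberg adjustment over all genes) for the 12038 genes averaging 1 TPM or more, 8 of the 10 factors were tested, since Pou5f1 and Cdx2 were below that mean. Tfap2c, Klf4 and Sall4 were called lower at an adjusted p-value under 0.05 and 0 higher. Among all genes tested 20.5% were called, 14.1% lower and 6.42% higher. How the factors stood against all genes depended on the setting, since 3 of 8 were also called with the replicate number as a block, where 42.6% of all genes were called, and 1 of 8 with quantile normalization, median-ratio scaling or no trend, where 2197, 2234 and 2026 of the 12038 genes were called. The balance of directions over all genes depended on the scaling, as 31.3% of the calls were higher with the deposited TPM and 49.0% when the libraries were quantile normalized. The median log2 fold change of the 8 was -0.53, against -0.09 for all genes tested. Of the 8 factors 5 had groups that did not overlap, 4 of them lower, and of all genes tested 69.8% did not overlap, 38.7% being lower and 31.1% higher. An exact permutation test of 1 gene in 2 against 2 libraries gives p = 0.33 at the smallest.

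Tfap2c (ENSMUSG00000028640, AP-2 gamma, chromosome 2 of GRCm38 from 172549593 to 172558622, plus strand) is a factor of the trophectoderm and of early embryonic enhancers. It was at 76.2 and 79.5 TPM in untreated embryos and at 21.4 and 32.1 TPM in treated embryos. Both DMSO libraries lay far below both control libraries, and the mean fell to 34.4% of the control mean. The log2 fold change was -1.53 (standard error 0.30, 95% interval -2.25 to -0.82, limma adjusted p = 0.0247). Without control replicate 1, control replicate 2 or DMSO replicate 1 the adjusted p-value rose to 0.0799, 0.157 and 0.0845, with log2 fold changes of -1.56, -1.50 and -1.25. None of its sequence is shared with other genes, as 0% of the 31-base words in its transcripts are found elsewhere.

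Sall4 (ENSMUSG00000027547, chromosome 2 from 168748332 to 168767943, minus strand) is a zinc finger factor that works with Pou5f1 and Nanog in embryonic stem cells. It was at 73.3 and 84.6 TPM in untreated embryos and at 37.0 and 39.9 TPM in treated embryos. The libraries of each group lay close together and the groups did not overlap, with the DMSO mean at 48.7% of the control mean. The log2 fold change was -1.02 (standard error 0.26, 95% interval -1.63 to -0.40, limma adjusted p = 0.0397). Without any one library it was no longer called, with log2 fold changes between -1.12 and -0.91 (limma adjusted p = 0.122 without control replicate 1, 0.253 without control replicate 2, 0.128 without DMSO replicate 1 and 0.0628 without DMSO replicate 2). Quantile normalization, median-ratio scaling and no trend also ended the call (limma adjusted p = 0.0906, 0.0529 and 0.0579). The gene Gm14261 overlaps it on the other strand and holds 8.39% of its 31-base words.

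Klf4 (ENSMUSG00000003032, chromosome 4 from 55527143 to 55532466, minus strand) is a Kruppel-like factor best known as one of the factors that reprogram somatic cells. It was at 44.6 and 29.5 TPM in untreated embryos and at 14.3 and 17.7 TPM in treated embryos. Both DMSO libraries lay below both control libraries, at 43.2% of the control mean. The log2 fold change was -1.14 (standard error 0.32, 95% interval -1.91 to -0.38, limma adjusted p = 0.0496), so that it passed the threshold narrowly. It was not called with quantile normalization, median-ratio scaling, a pseudocount of 0.1 or no trend (limma adjusted p = 0.0696, 0.0515, 0.0564 and 0.0615), nor without any one library, where the adjusted p-value ran from 0.0683 without DMSO replicate 2 through 0.17 without DMSO replicate 1 and 0.157 without control replicate 2 to 0.227 without control replicate 1.

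Nanog (ENSMUSG00000012396, chromosome 6 from 122707489 to 122714633, plus strand), a homeobox factor of the inner cell mass, was the factor with the largest positive log2 fold change among the 8. It was at 7.73 and 7.04 TPM in untreated embryos and at 11.5 and 14.0 TPM in treated embryos. Both DMSO libraries lay above both control libraries, but the log2 fold change of 0.71 (standard error 0.30, 95% interval -0.01 to 1.43, limma adjusted p = 0.129) did not pass the threshold. It stayed between 0.58 and 0.84 without any one library. Of its 31-base words 10.7% occur in other genes, among them the pseudogene Nanog-ps1 with 4.60%, which was listed at 0 in all 4 libraries. Eapp and Trim6 share 2.68% each and were above Nanog in untreated embryos, Eapp at 125 and 118 TPM and Trim6 at 30.8 and 31.5 TPM. In treated embryos Eapp was at 41.8 and 64.0 TPM and Trim6 at 13.3 and 11.5 TPM, lower than in untreated embryos in every library.

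Klf5 and Klf17 did not pass the test. Klf5 (ENSMUSG00000005148, chromosome 14 from 99298691 to 99315036, plus strand), a Kruppel-like factor of both the inner cell mass and the trophectoderm, was at 37.9 and 53.1 TPM in untreated embryos and at 49.8 and 45.6 TPM in treated embryos. Both DMSO values lay inside the control range, and the log2 fold change was 0.09 (95% interval -0.60 to 0.77, limma adjusted p = 0.834). Klf17 (ENSMUSG00000048626, chromosome 4 from 117757836 to 117765648, minus strand) had a log2 fold change of -0.20 (95% interval -1.19 to 0.80, limma adjusted p = 0.737), which was 0.06 after quantile normalization. For Klf17, replicate 1 was 1.82 times replicate 2 in control embryos and 1.87 times in DMSO-treated embryos, so that the difference between replicate numbers was larger than that between groups. These intervals still hold changes of more than 1.5-fold for both genes, and a lack of change was not shown.

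Zfp42 and Sox2 were low. Zfp42 (ENSMUSG00000051176, chromosome 8 from 43295063 to 43306980, minus strand), a zinc finger gene used as a marker of undifferentiated embryonic stem cells, was at 6.18 and 4.23 TPM in untreated embryos and at 1.37 and 3.74 TPM in treated embryos. The groups did not overlap, but DMSO replicate 2 lay close to control replicate 2, and the log2 fold change of -0.87 (95% interval -1.92 to 0.18, limma adjusted p = 0.182) did not pass the threshold. Without DMSO replicate 1 it was -0.37. Sox2 (ENSMUSG00000074637, chromosome 3 from 34650405 to 34652461, plus strand), the partner of Pou5f1 on DNA, was at 2.14 and 0.663 TPM in untreated embryos and at 1.48 and 0.916 TPM in treated embryos, with both DMSO values inside the control range. Its log2 fold change of -0.07 (95% interval -1.09 to 0.96, limma adjusted p = 0.917) became 0.39 without control replicate 1 and 0.12 without DMSO replicate 2. The gene lies within Sox2ot, a non-coding gene on the same strand.

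Pou5f1 and Cdx2 were near 0 throughout and were not tested. Pou5f1 (ENSMUSG00000024406, chromosome 17 from 35506018 to 35510772, plus strand) was listed at 0 and 0.123 TPM in untreated embryos and at 0.138 and 0.243 TPM in treated embryos. Cdx2 (ENSMUSG00000029646, chromosome 5 from 147300805 to 147307270, minus strand) was listed at 0.0772 and 0 TPM and at 0.162 and 0.197 TPM. These values are too low for a direction to be read, and they do not show that the RNA was absent. In the same table Actb, the cytoplasmic actin gene that every cell uses, was listed at 1.09 and 0.706 TPM in untreated embryos and at 8.58 and 0 TPM in treated embryos, and Pgk1, an enzyme of glycolysis, at 0.152 and 1.705 TPM and at 0 and 0 TPM. Of the 31-base words of Pou5f1 14.2% occur in other genes, of which the overlapping antisense gene Gm19553 holds 11.3%.

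**Figure D2:**
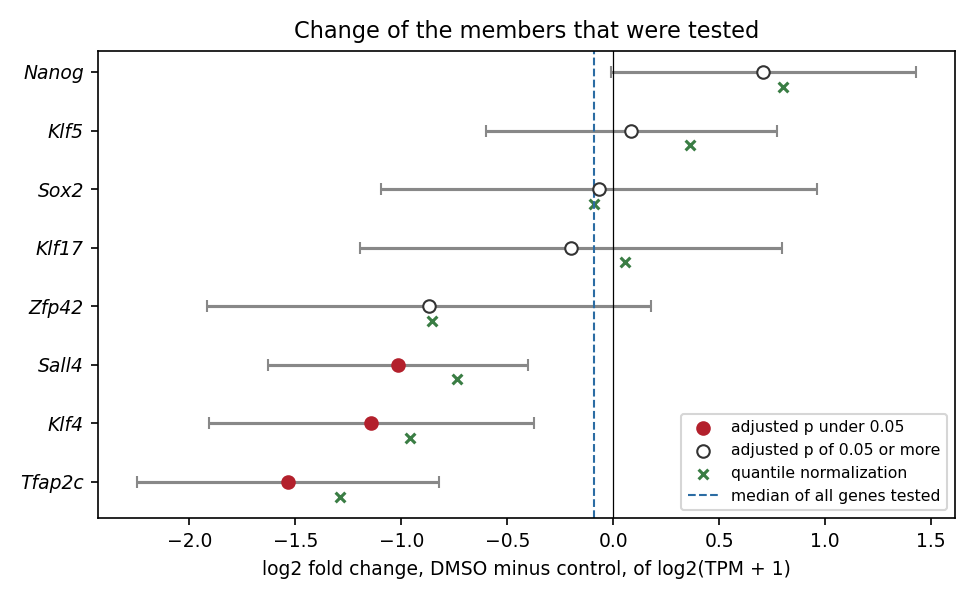
Log2 fold change of log2(TPM + 1), DMSO minus control, of the 8 factors tested, with 95% intervals (grey bars), filled points for an adjusted p-value under 0.05, crosses for the value after quantile normalization, and a dashed line at the median of all genes tested (-0.09). The intervals of Sall4, Klf4 and Tfap2c lie below 0, and that of Nanog reaches from -0.01 to 1.43.

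Ratios of 2 factors within a library do not change when the library is divided by a single factor, as in median-ratio scaling. Quantile normalization can change them. The pairs were chosen after the values had been seen and are given without a test. Nanog divided by Klf4 was 0.173 and 0.239 in untreated embryos and 0.805 and 0.791 in treated embryos. Nanog divided by Sall4 was 0.105 and 0.0832 in untreated embryos and 0.310 and 0.351 in treated embryos. Klf5 divided by Tfap2c was 0.497 and 0.667 in untreated embryos and 2.33 and 1.42 in treated embryos. For these 3 pairs both DMSO libraries lay above both control libraries, which the choice of the pairs had set. Klf17 divided by Klf5, from the genes that did not pass the test, was 8.07 and 3.16 in untreated embryos and 5.42 and 3.16 in treated embryos, where the groups overlapped.

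The upstream sequences of 3 factors are shown because these genes differ in level and in log2 fold change. Nanog had the largest positive value among the factors tested but was not called. Klf4 was among the genes called lower, and Klf17, also not called, had the highest level. Each sequence is the 250 bases before the RefSeq start on GRCm38.p6, written 5′ to 3′ on the gene's strand. For Nanog (chr6:122707239-122707488, plus strand) capitals mark the octamer word ATGCAAA and the SOX word CATTGT, read on either strand, which stand next to each other. For Klf4 (chr4:55532476-55532725, minus strand) and Klf17 (chr4:117765667-117765916, minus strand) capitals mark the GC box GGGCGG and the word CCNCNCCC of Kruppel-like factors on either strand, and these overlap in Klf4 but not in Klf17.
Nanog: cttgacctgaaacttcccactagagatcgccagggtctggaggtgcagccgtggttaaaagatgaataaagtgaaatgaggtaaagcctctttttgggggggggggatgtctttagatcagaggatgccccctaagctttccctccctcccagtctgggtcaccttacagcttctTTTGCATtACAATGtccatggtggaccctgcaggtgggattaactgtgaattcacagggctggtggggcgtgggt
Klf4: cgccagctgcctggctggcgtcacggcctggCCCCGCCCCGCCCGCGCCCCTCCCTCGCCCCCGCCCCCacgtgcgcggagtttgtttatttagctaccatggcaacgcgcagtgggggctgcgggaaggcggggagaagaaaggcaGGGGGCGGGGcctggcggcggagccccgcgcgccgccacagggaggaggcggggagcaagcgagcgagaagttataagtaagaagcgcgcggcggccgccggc
Klf17: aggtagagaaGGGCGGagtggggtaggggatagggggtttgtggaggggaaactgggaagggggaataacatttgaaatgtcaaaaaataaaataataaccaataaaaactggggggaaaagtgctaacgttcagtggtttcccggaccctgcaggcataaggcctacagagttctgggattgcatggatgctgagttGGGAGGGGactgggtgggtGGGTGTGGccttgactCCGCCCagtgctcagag

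Such sequences were found for 7 of the 10 factors in the RefSeq table. The octamer word was in the upstream sequences of Nanog, Sox2, Cdx2 and Zfp42, and in 4.1% of all 32851 sequences of this length in the table. Only Nanog, of the 7, held the SOX word, which was in 10.7% of all. The Kruppel-like word was in all 7, with 9 matches each in Klf4 and Sox2, and in 45.9% of all. The GC box was in Klf4, Klf17, Pou5f1, Sox2 and Zfp42 and in 32.7% of all, and the word TATAAA in none of the 7 and in 12.4% of all. The 3 sequences differ in composition, with 74.0% G and C for Klf4 and 52.0% each for Nanog and Klf17, against a median of 52.4%. A match is a description of letters and not a bound site.

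Klf4, Klf5 and Klf17 were set beside the other 14 Kruppel-like factor genes, which bind related GC-rich words. Klf17 held 53.3% and 37.7% of the family's summed TPM in untreated embryos and 59.6% and 42.2% in treated embryos. The family sum was 574 and 445 TPM in untreated embryos and 452 and 341 TPM in treated embryos, and the groups overlapped. Of the other 14 genes 10 were tested, of which 2 were lower, 1 higher and 7 not called. Klf9 went from 53.8 and 56.9 TPM in untreated embryos to 5.18 and 6.40 TPM in treated embryos (log2 fold change -3.06 with a standard error of 0.28, limma adjusted p = 0.0181). Klf2, which shares functions with Klf4 and Klf5 in embryonic stem cells, went from 17.5 and 35.5 TPM to 4.19 and 6.76 TPM (log2 fold change -2.03, limma adjusted p = 0.028). For both genes, named because they were called, all DMSO values lay below all control values, by a wide margin for Klf9. This was so for 38.7% of all genes tested. Klf7 was higher, at 5.87 and 3.39 TPM in untreated embryos and 18.0 and 11.4 TPM in treated embryos (log2 fold change 1.48, limma adjusted p = 0.0414), although 38.7% of its 31-base words are shared with other genes, nearly all with Gm26649. The median of the 10 was -0.16, against -0.09 for all genes, of which 14.1% were lower and 6.42% higher.

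**Figure D3:**
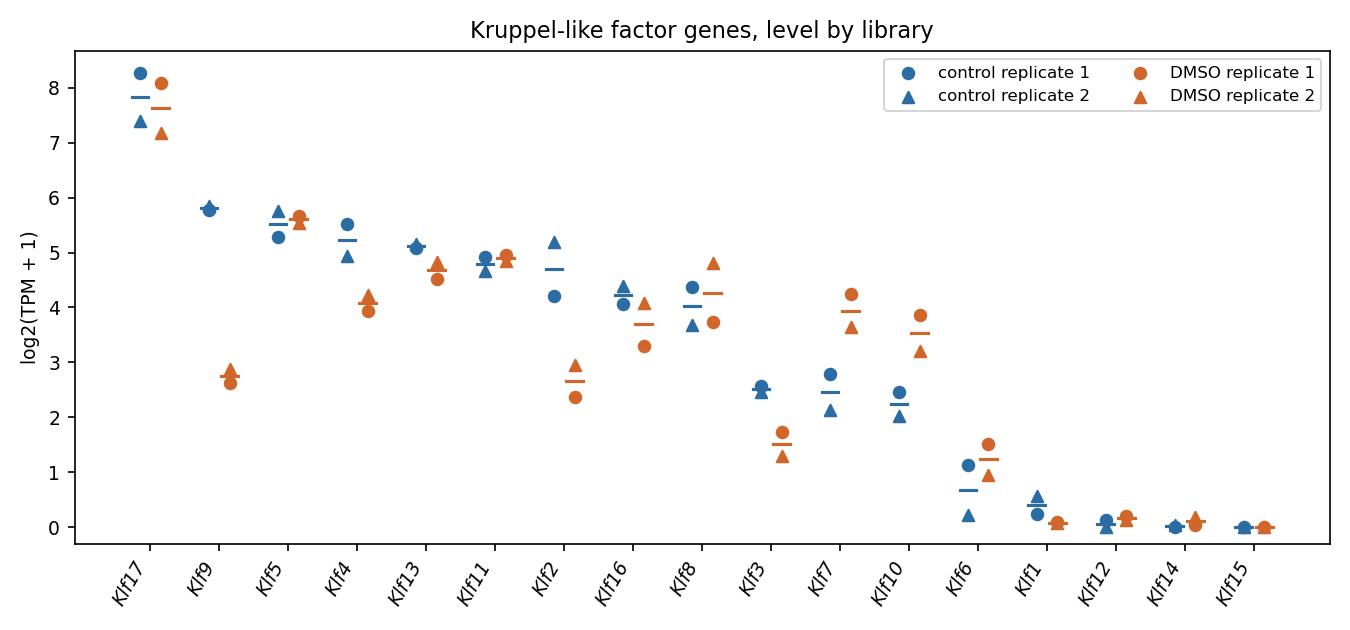
Level of the 17 Kruppel-like factor genes, as log2(TPM + 1), in control (blue) and DMSO (orange) libraries, with circles for replicate 1, triangles for replicate 2 and short lines for group means. Klf17 is highest in all libraries. Among the genes tested, the DMSO libraries lie below the control libraries for Klf9, Klf4, Klf2, Klf3 and Klf13 and above them for Klf7 and Klf10. Of these, Klf3, Klf13 and Klf10 were not called.

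Of 23 relatives of the other factors (POU, SOX, SALL, TFAP2, CDX and YY genes) 15 were tested, of which 6 were lower, 1 higher and 8 not called, with a median log2 fold change of -0.79. The shares among all genes tested were 14.1% lower and 6.42% higher, and their median was -0.09. Tfap2e, a paralog of Tfap2c, was the one that was higher, at 27.4 and 19.9 TPM in untreated embryos and 81.6 and 62.8 TPM in treated embryos (log2 fold change 1.57 with a standard error of 0.30, limma adjusted p = 0.0239). The sum of the 5 TFAP2 genes was 107 and 100.9 TPM in untreated embryos and 109 and 98.3 TPM in treated embryos. Within it Tfap2c held 71.3% and 78.8% in untreated embryos and 19.5% and 32.7% in treated embryos, and Tfap2e 25.7% and 19.7% and then 74.7% and 63.8%. Tfap2c was thus the more abundant of the pair in control embryos and Tfap2e in DMSO-treated embryos.

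Among the SOX genes, Sox2 was a minor member. It held 2.46% and 0.542% of the summed TPM of 8 SOX genes in untreated embryos and 5.66% and 3.71% in treated embryos. Sox7 and Sox17, listed with the primitive endoderm genes, were left out of that sum. Sox15, which can bind with Pou5f1 as Sox2 does, was the most abundant, at 65.8 and 86.4 TPM in untreated embryos and 21.7 and 16.8 TPM in treated embryos (log2 fold change -1.93 with a standard error of 0.29, limma adjusted p = 0.0186). Sox13, Sox12 and Sox21 were lower as well, with log2 fold changes of -2.55, -1.92 and -1.69 (the call of Sox12 was lost with median-ratio scaling, limma adjusted p = 0.0517), and Sox21 was listed at 0 in both libraries of treated embryos. Sox12 was at 2.76 and 7.11 TPM in untreated embryos and at 0.171 and 0.809 TPM in treated embryos. Sox12 and Sox21 reached the mean of 1 TPM only through the untreated embryos, where they were high, so that the filter favoured their calls, which are among the 6 lower ones. The SOX sum was 86.8 and 122 TPM in untreated embryos and 26.2 and 24.7 TPM in treated embryos, and the groups did not overlap. Sall4 held at least 96.1% of the summed TPM of the 4 SALL genes in every library. Pou5f1 held at most 0.812% of that of 6 POU genes, among which Pou6f1 was lower (log2 fold change -1.60). This share rests on Pou5f1 values near 0, which do not show that its RNA was absent. Yy2, a relative of Zfp42, was also called lower, but all of its 31-base words (100%) occur in other genes, and its value is uncertain.

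Of 20 other pluripotency genes 19 were in the table and 16 were tested, of which 4 were lower, 1 higher and 11 not called, with a median log2 fold change of -0.50, against 20.5% called and a median of -0.09 among all genes. Fgf4, a growth factor gene that Pou5f1 and Sox2 activate in embryonic stem cells, went from 18.1 and 20.3 TPM in untreated embryos to 1.80 and 3.69 TPM in treated embryos (log2 fold change -2.47 with a standard error of 0.36, limma adjusted p = 0.0181). Dppa2 and Dppa4, a pair of DNA-binding proteins that act at the onset of embryonic transcription, went from 352 and 330 TPM to 86.8 and 99.8 TPM and from 538 and 525 TPM to 166 and 188 TPM. Dppa5a, an RNA-binding protein gene, went from 1783 and 2756 TPM to 435 and 703 TPM. For these 4 genes, named because they were called lower, every DMSO value was below every control value. This was so for 38.7% of all genes tested. Of the 31-base words of Dppa2, Dppa4 and Dppa5a 33.8%, 40.1% and 57.2% are found in other genes too, against 0% for Fgf4. Gbx2, a homeobox gene downstream of LIF signalling, was at 11.0 and 5.98 TPM in untreated embryos and at 88.4 and 55.4 TPM in treated embryos (log2 fold change 2.96 with a standard error of 0.39, limma adjusted p = 0.0181). Of its words 42.7% are shared, all of them with D130058E05Rik.

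Of 27 trophectoderm and Hippo pathway genes 19 were tested, of which 3 were lower, 1 higher and 15 not called, against 20.5% called among all genes, so that the share of this list was near the background. The Hippo pathway is the kinase cascade that keeps Cdx2 off in inner cells. Its kinase Stk4 was at 24.1 and 24.2 TPM in untreated embryos and at 5.36 and 7.47 TPM in treated embryos (log2 fold change -1.78, limma adjusted p = 0.0216), and its activator Nf2 at 62.8 and 64.6 TPM and at 18.8 and 32.3 TPM (log2 fold change -1.33, limma adjusted p = 0.0377). Hand1, a factor of trophoblast giant cells, was at 2.51 and 4.27 TPM and at 0.932 and 0 TPM and was called lower, but reached the mean of 1 TPM only through the untreated embryos. The calls of Nf2 and Hand1 were lost with quantile normalization (limma adjusted p = 0.0703 and 0.0578) and with median-ratio scaling (limma adjusted p = 0.0508 and 0.0576). Id2, an inhibitor of helix-loop-helix factors, rose from 6.09 and 5.19 TPM to 73.6 and 54.6 TPM (log2 fold change 3.28 with a standard error of 0.30, limma adjusted p = 0.0181). Of 12 primitive endoderm genes 3 were tested and 0 called at an adjusted p-value under 0.05 (limma). The most abundant, Gata4, was at 54.2 and 43.2 TPM and at 27.1 and 31.01 TPM (log2 fold change -0.72, limma adjusted p = 0.102).

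Of 21 genes of LIF, FGF and MAPK signalling, which feed into the pluripotency circuit, 17 were tested, of which 4 were higher, 2 lower and 11 not called, with a median log2 fold change of 0.20. Among all genes 6.42% were higher and 14.1% lower. Socs3, a target and inhibitor of LIF signalling, went from 29.7 and 50.0 TPM in untreated embryos to 1.46 and 3.74 TPM in treated embryos (log2 fold change -3.53 with a standard error of 0.44, limma adjusted p = 0.0181). Sos1, an activator of RAS, went from 23.2 and 30.2 TPM to 3.33 and 5.88 TPM (log2 fold change -2.33). The kinases Mapk3, Jak1 and Map2k1 were higher, with log2 fold changes of 2.12, 1.67 and 1.18, and so was Spry4, an inhibitor of the pathway, at 1.45. Mapk3 went from 25.6 and 14.5 TPM to 107 and 71.3 TPM. All its DMSO values lay above all control values, as for 31.1% of all genes tested. Over the 6 lists together, 80 of 116 genes were tested, 8 were higher and 17 lower, and the median log2 fold change was -0.12, against 14.1% lower, 6.42% higher and a median of -0.09 among all genes tested. Of these 25 genes 22 were called in the same direction with quantile normalization, which ended the calls of Nf2, Hand1 and Yy2, and 22 with median-ratio scaling, which ended those of Nf2, Hand1 and Sox12. Both scalings also added Nr5a2 and Klf10 as higher, so that 10 related genes were higher and 14 lower under each. In the main fit, Nr5a2 and Klf10 had narrowly missed the threshold (limma adjusted p = 0.0516 and 0.0537). Without control replicate 1, control replicate 2 or DMSO replicate 1 the numbers of related genes called were 0 higher and 0 lower, in fits that called 3, 3 and 15 of all genes. Without DMSO replicate 2, where 2091 of all genes were called, they were 9 and 12.

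**Figure D4:**
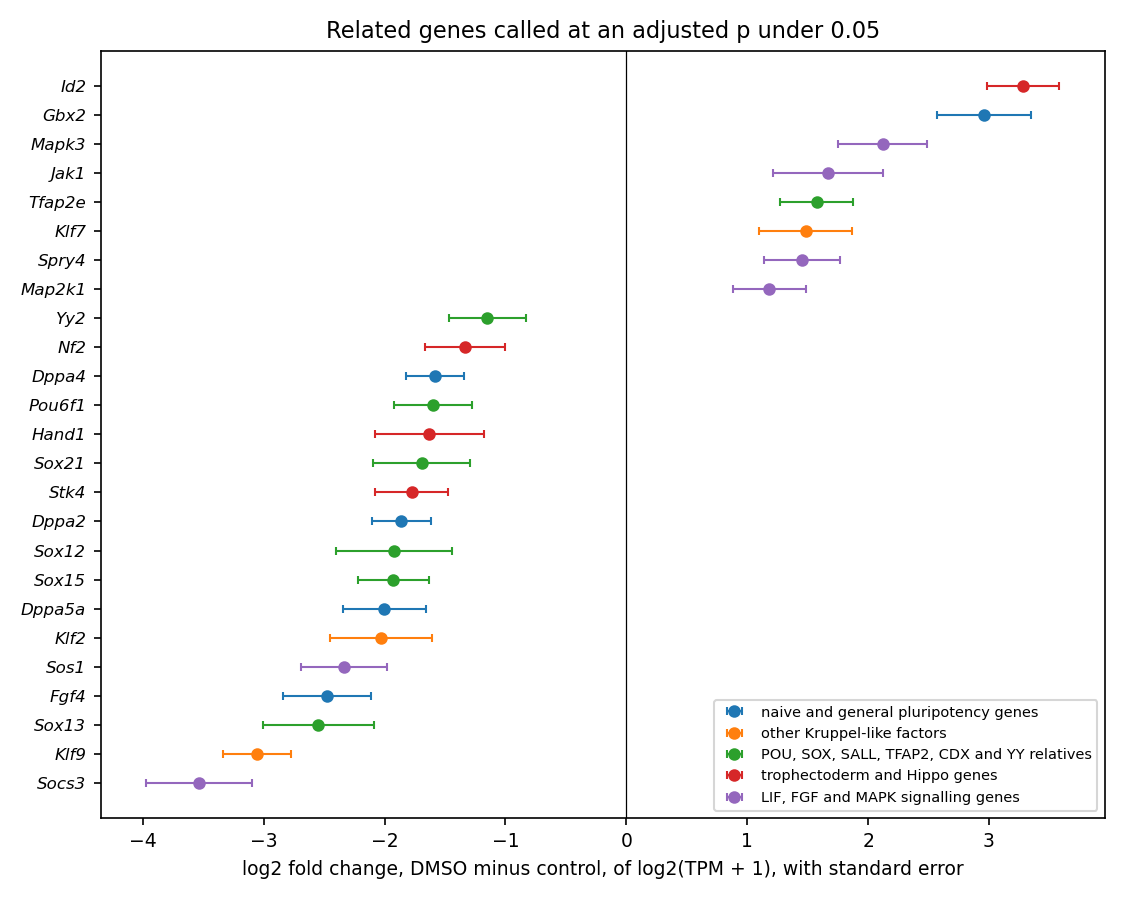
Log2 fold change of log2(TPM + 1), DMSO minus control, with its standard error, of the 25 related genes that passed the limma test, coloured by list. The values run from -3.53 for Socs3 to 3.28 for Id2.

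The factors were followed over 12 ways of processing the data. Other filters, a fit without the trend and the block change the p-value but by construction not the log2 fold change. Under the settings that can change it, which are the pseudocount, both scalings and leaving out a library, Tfap2c, Sall4 and Klf4 stayed negative and Nanog positive. Tfap2c was called lower in 6 of 7 other settings that kept all libraries, Sall4 in 3 and Klf4 in 2, among them in each case the fit with the replicate number as a block, under which 42.6% of all genes were called. When genes of any level were tested, none of the 3 was called (limma adjusted p = 0.103, 0.103 and 0.131), where 0 of all 22257 genes passed and 5368 had an unadjusted p-value under 0.05.

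**Figure D5:**
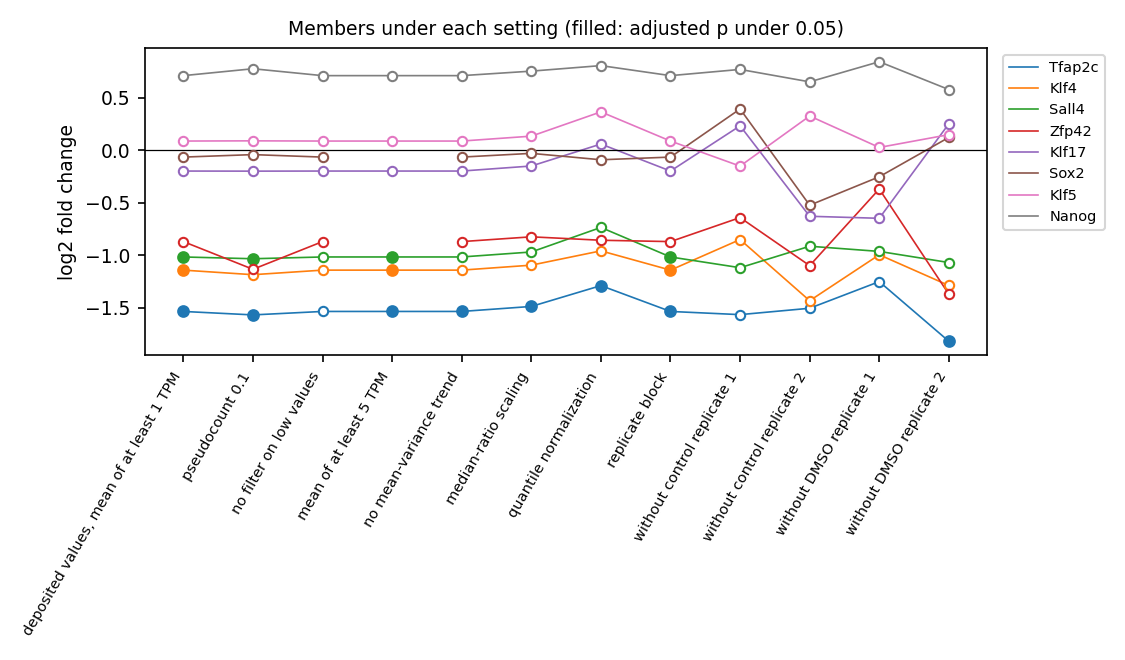
Log2 fold change of the 8 factors (lines) under each setting, with filled points for a limma adjusted p-value under 0.05. Tfap2c, Klf4, Sall4 and Zfp42 lie below 0 and Nanog above 0 in all settings where they were tested (other filters, no trend and the block leave the value as it is), and Klf17, Klf5 and Sox2 cross 0.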

How the data were processed

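RNA of 50 mouse 2-cell embryos per group was amplified from low input and sequenced, giving 2 control and 2 DMSO libraries, grouped by the sample labels. The authors quantified transcripts with kallisto, which divides ambiguous reads among transcripts by likelihood, on the Ensembl transcriptome of GRCm38, summed them per gene with tximport, and deposited TPM values. Since TPM holds no read numbers, count models were not applied and counting error is unknown, and the precision rests on the spread between libraries. The authors' own test was DESeq2 on estimated counts, which were not used here.

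Symbols and coordinates came from GENCODE M21 on GRCm38, which named 29589 of 30049 identifiers. Testing used limma 3.58.1 under R 4.3.3 on log2(TPM + 1) for genes averaging 1 TPM or more (lmFit, eBayes with trend, without a replicate block), with Benjamini-Hochberg adjustment over all genes and calls at 0.05. The steps were also run on simulated data, with noise set below the spread between these libraries. That run does not show how often real changes are found here. To see where reads could be shared, the 31-base words of each listed gene were looked up in the GENCODE transcripts of other genes, an annotation that may differ from that of the authors' index. Upstream sequences came from RefSeq. Python 3.11.15, pandas 2.3.3, numpy 2.4.6 and matplotlib 3.10.9 were used for other steps.

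The 10 factors, the related lists and the tests were chosen with earlier results of these data known. All 10 factors were named, and from each related list the genes called, at most 5 per direction by size of change, or otherwise the most abundant gene. Yy2 was named in addition, after its value was seen. Alternatives were a pseudocount of 0.1, no filter, a mean of at least 5 TPM, no trend, median-ratio scaling, quantile normalization, a replicate block and leaving out each library.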

Additional observations from a re-analysis of the deposited data

How the results depend on the processing

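With 2 libraries per group, omitting a library left a lone one in that group and 1 residual degree of freedom, the lone library being assumed to vary like the others. Over these 4 fits the genes called higher ranged from 1 to 714 and lower from 2 to 1377, the factors called lower from 0 to 1, the related genes called higher from 0 to 9 and lower from 0 to 12. The log2 fold change ranged from -0.52 to 0.39 for Sox2, from -0.15 to 0.32 for Klf5 and from -0.65 to 0.25 for Klf17. Without the filter on low values 0 genes were called by limma in either direction, 0 factors and 0 related genes. Without the trend, with median-ratio scaling and with quantile normalization 1 factor, Tfap2c, was called lower, and quantile normalization gave 1121 genes lower and turned the log2 fold change of Klf17 to 0.058. The cause was not tested. Same-numbered libraries deviated from their group means with a correlation across genes of 0.35, and genes are not independent replicates. With the replicate block 2151 genes were called higher and 2981 lower, 13 related genes higher and 24 lower, and the same 3 factors lower. With a pseudocount of 0.1 the 8 factors kept their directions, but 2 rather than 3 were called lower, as Klf4 was lost (limma adjusted p = 0.0564). Other filters, no trend and the block leave the log2 fold change as it was by construction, and Sox2 and Zfp42 were not tested at a mean of at least 5 TPM. Depth is unknown, which limits what can be said of Pou5f1, Cdx2 and Sox2.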

Other observations

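Some related genes were high in 1 library only. Wwtr1, a Hippo coactivator, was listed at 3.71 TPM in control replicate 1, at 8.26e-06 TPM in control replicate 2, at 5.4e-06 TPM in DMSO replicate 1 and at 0 in DMSO replicate 2. Stk3, a Hippo kinase, was at 0.998 and 2.88 TPM in untreated embryos and at 11.8 and 1.65 TPM in treated embryos. Dppa3, a maternal factor that protects DNA methylation, was the most abundant related gene, at 11639 and 15346 TPM in untreated embryos and at 10828 and 15216 TPM in treated embryos, where replicate 2 was above replicate 1 in both groups. Nr0b1, Klf15 and Col4a2 were listed at 0 in all 4 libraries.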
